A study of Mus musculus with 34 samples.

Results

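In the coronal series of a brain of 1 male C57BL/6J mouse aged 3 days, fractions 4, 5 and 6 were compared with fractions 7, 8 and 9, a stretch labelled for this work as the step from midbrain to diencephalon. These 6 fractions are 6 of the 34 fractions of the whole series and 6 of the 15 coronal ones. The study, called Transcriptome Tomography by its authors, cut 3 such brains along 1 axis each and measured total RNA of every fraction on a single-colour Agilent mouse array. A coronal fraction was the sum of slices over 500 µm of tissue, so RNA of all cell types and of attached tissue in that slab was mixed. The labels name no treatment, transgene or mutation, both sides came from the same animal, and neither the orientation of the numbering nor the region in a fraction is given. Probes flagged well above background in at least 2 of the 6 fractions were kept, which gave 33459 of 43199 probes (77.5%) and 15650 named genes. Of the kept probes 28980 were well above background in all 6 fractions.

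The embryonic and newborn brain is laid out along its length by transcription factors that each mark a segment. Engrailed, Pax and Gata factors mark the midbrain and the isthmus at its border with the hindbrain, Hox genes mark hindbrain segments, and Iroquois (Irx) genes are known from the midbrain, the hindbrain and the caudal diencephalon. The hypothalamus, in the ventral forebrain, is known by factors such as Fezf1 and Six6 and by neurons that secrete peptide hormones. Dlx and Tbr1 mark GABA and glutamate neurons of the telencephalon.

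The start-site regions of 5 genes are shown because these genes are known markers of a cell type or region on either side: Tph2 and Fev of serotonin neurons had their highest coronal value in fraction 5, while Pmch, Hcrt and Fezf1, known from the hypothalamus, had theirs in fraction 8. Each is the 250 bases before the transcription start in RefSeq (build GRCm38.p6, written 5′ to 3′ on the gene's strand), with matches to TATAAA or TAATTA, on either strand, in capitals. TATAAA is the core of the TATA box and TAATTA a core bound by many homeodomain factors.
Tph2, chr10:115185023-115185272, minus strand: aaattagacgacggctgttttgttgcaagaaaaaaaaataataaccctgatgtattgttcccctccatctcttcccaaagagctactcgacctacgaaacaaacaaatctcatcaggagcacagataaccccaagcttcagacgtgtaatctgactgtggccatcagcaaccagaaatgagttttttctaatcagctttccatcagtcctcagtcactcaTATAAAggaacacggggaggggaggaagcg
Fev, chr1:74885409-74885658, minus strand: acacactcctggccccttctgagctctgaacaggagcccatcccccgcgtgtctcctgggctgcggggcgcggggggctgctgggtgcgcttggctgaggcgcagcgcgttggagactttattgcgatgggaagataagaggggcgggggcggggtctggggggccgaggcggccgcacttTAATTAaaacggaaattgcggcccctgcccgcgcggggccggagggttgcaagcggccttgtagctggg
Pmch, chr10:88090822-88091071, plus strand: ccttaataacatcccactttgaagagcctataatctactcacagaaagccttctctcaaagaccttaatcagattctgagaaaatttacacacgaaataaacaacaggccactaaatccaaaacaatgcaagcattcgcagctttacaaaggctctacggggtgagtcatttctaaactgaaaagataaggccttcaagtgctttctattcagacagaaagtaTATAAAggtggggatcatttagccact
Hcrt, chr11:100762932-100763181, minus strand: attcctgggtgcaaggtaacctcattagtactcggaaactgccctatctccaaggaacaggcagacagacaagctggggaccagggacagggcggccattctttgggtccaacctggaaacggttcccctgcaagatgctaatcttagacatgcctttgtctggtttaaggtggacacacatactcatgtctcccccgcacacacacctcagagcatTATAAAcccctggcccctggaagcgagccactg
Fezf1, chr6:23248265-23248514, minus strand: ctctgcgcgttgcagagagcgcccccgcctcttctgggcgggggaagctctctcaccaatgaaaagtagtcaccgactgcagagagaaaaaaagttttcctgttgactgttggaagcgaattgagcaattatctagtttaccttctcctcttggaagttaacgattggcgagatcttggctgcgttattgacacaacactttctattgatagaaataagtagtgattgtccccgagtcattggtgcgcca
TATAAA lay 30 bases before the start of Tph2, 27 before that of Pmch and 33 before that of Hcrt, while the window of Fev held TAATTA 69 bases before the start and that of Fezf1 held neither. A TATAAA match, on either strand, was found in 12.4% of all 32851 RefSeq windows of this length, in 15.7% of the 217 windows of genes at least 2-fold lower in fractions 7 to 9 and in 22.4% of the 152 windows of genes at least 2-fold higher. For TAATTA the shares were 4.84%, 6.91% and 12.5%, and for the E-box CAGCTG, searched likewise, 13%, 12.9% and 15.1%. A window was found for 178 of 235 lower and 123 of 167 higher genes. All RefSeq windows came from 27025 genes, including genes not kept here, while called genes were drawn from the 15650 kept. The shares are thus not of like sets, and an excess was not tested. Some genes have several windows, and a match is a description of the sequence, not a site of binding.

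All values below are the study's per-chip normalized log2 values, in which the 75th percentile of an array lies near 0. A probe is called lower or higher here when all 3 values of a side lie beyond all 3 of the other side and the side means differ by at least 1 on the log2 scale, which is 2-fold. This rule needs no test, and a call under it is a description of these 6 fractions. The gap is the distance between the nearest values of the sides. Differences are the mean of fractions 7 to 9 minus the mean of fractions 4 to 6, with the standard error (SE) from limma over 3 fractions a side.

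By this rule 407 probes (1.22% of those kept) were lower and 305 (0.912%) were higher in fractions 7 to 9. In genes these were 235 lower (1.5% of 15650) and 167 higher (1.07%), of which 144 and 103 were well above background in all 6 fractions. With normexp background correction and quantile normalization, which draws dim values together, 153 probes were lower and 86 higher. A gap of at least 2-fold was present for 83 lower probes (0.248%) and 29 higher ones (0.0867%). Non-overlap alone, with no minimum of difference, held for 3656 lower (10.9%) and 5985 higher probes (17.9%), and the median difference of all kept probes was 0.04. Limma with Benjamini-Hochberg adjustment called 0 probes lower (0%) and 0 probes higher (0%) at an adjusted p under 0.05, with 2625 lower and 3713 higher probes at an unadjusted p under 0.05 and a smallest adjusted p of 0.153. Limma-trend called 0 lower and 1 higher, the probe of Fezf1, and a limma fit over all 15 coronal fractions in 5 blocks of 3 called 48 lower and 23 higher. An exact two-sided permutation test of 3 against 3 cannot go below p = 0.1. The fractions of a side are neighbouring positions in a single mouse and not replicates, so their spread holds any gradient along the axis and no p-value speaks of other mice.

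The 6 arrays had between 33392 and 36406 of 59305 spots well above background and no saturated spot. Fractions 4 to 8 were hybridised on the same slide and fraction 9 on another, so that leaving fraction 9 out gives the comparison within a slide. Without it 395 probes were lower and 340 higher, of which 324 and 264 were among those called with it. Muscle transcripts stood out in fraction 6. Over the 10 kept of 12 muscle genes the summed linear level was 4.01, 3.76 and 20.6 in fractions 4, 5 and 6 and 5.49, 4.52 and 3.70 in fractions 7, 8 and 9, and Tnnc2, a troponin of fast muscle, had log2 values of -3.35, -3.33 and 2.51 and then -1.10, -2.36 and -3.52. Without fraction 6, 573 probes were lower and 481 higher, with 391 and 292 shared with the full comparison. Non-overlap is easier to meet with fewer values on a side, so counts without a fraction are not of like kind with the full ones. Without fraction 7, for instance, 576 were lower and 489 higher. The part of muscle RNA in other results was not tested.

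Of the 4 steps between neighbouring blocks of 3 coronal fractions, this step had fewer probes called in both directions together than those from fractions 1-3 to 4-6 (764 lower, 524 higher) and from 10-12 to 13-15 (733 lower, 593 higher), and about as many as that from 7-9 to 10-12 (442 lower, 297 higher). Among the 407 lower probes the largest difference between neighbours lay between fractions 6 and 7 for 206, between 7 and 8 for 77, between 5 and 6 for 52, between 8 and 9 for 45 and between 4 and 5 for 27. For the 305 higher probes the corresponding numbers were 132, 36, 52, 14 and 71. The pair 4 to 5, which lies inside the lower-numbered side, thus held 71 of 305 higher and 27 of 407 lower probes, and the contrast was not tested.

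**Figure D1:**
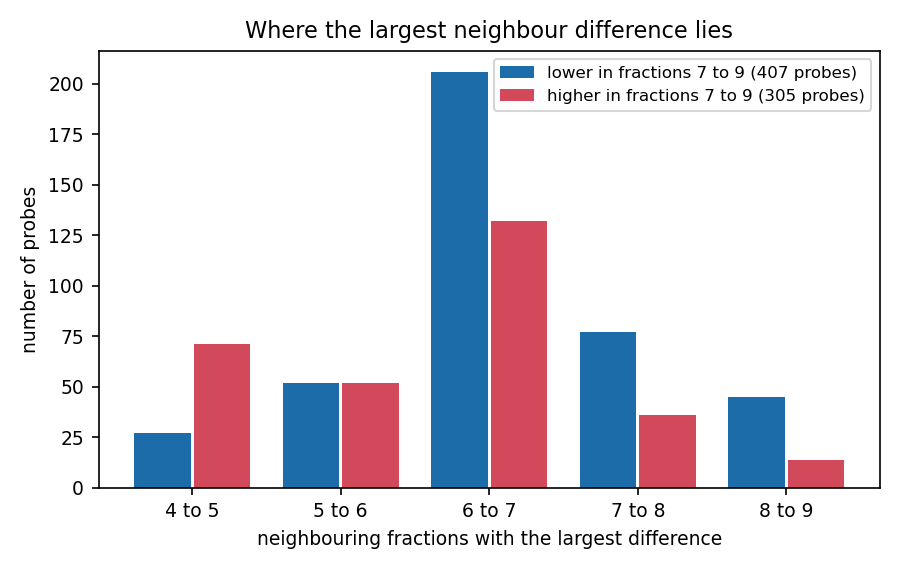
Number of probes (vertical axis) by the pair of neighbouring coronal fractions that differed most (horizontal axis), for probes at least 2-fold lower (blue) or higher (red) in fractions 7 to 9 with no overlap. The pair 6 to 7 holds 206 of 407 lower and 132 of 305 higher probes, and the pair 4 to 5 holds 27 and 71.

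Markers chosen for this work, with earlier results of these data known, were set beside the name of the step. They are thus not an independent check of it. The 4 kept midbrain markers En2, Pax7, Gata3 and Tfap2b were all lower in fractions 7 to 9, while En1 did not pass the filter. Of the thalamic markers Gbx2, Tcf7l2, Lhx9, Lef1, Prkcd and Foxp2, none met the rule of no overlap and 2-fold. Of the hypothalamic markers, Six6 and Nr5a1 were higher by the rule, Nkx2-1 and Foxb1 overlapped between the sides, and Sim1 and Otp did not pass the filter. All kept midbrain markers thus went with the name of the step, as did some hypothalamic markers and, in the full comparison, no thalamic one. Lower calls were not particular to midbrain genes. Of the kept genes, 12 of 16 hindbrain Hox, 5 of 5 noradrenaline and 5 of 8 serotonin genes were lower by the rule too. The markers therefore do not tell a midbrain side from one that also holds hindbrain. Tcf7l2 met the rule without fraction 6 (1.17) or 9 (1.18), and Gbx2 without fraction 4 (1.59) or 7 (1.64). The sides of Gbx2 overlapped in the full comparison, and non-overlap is easier to meet with fewer values on a side.

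The midbrain and isthmus regulators were lower almost throughout. Of 27 listed genes 23 were kept, 18 were lower by the rule, none was higher, and their median difference was -2.41 against 0.03 over all genes. Among the 15 that were well above background in all 6 fractions 12 were lower. In a slab of mixed tissue, fewer cells of a type and less RNA per cell cannot be told apart, here and below. En2, an engrailed factor of the midbrain and cerebellar primordium, had values of 2.88, 1.87 and 1.15 in fractions 4, 5 and 6 and of -1.01, -2.10 and -3.41 in fractions 7, 8 and 9. The sides did not overlap, the values descended without a turn, and the mean difference was -4.14 (SE 0.72), 17.7-fold, with a limma adjusted p of 0.160. Pou4f2, a POU factor of projection neurons in retina and midbrain, had the largest gap of all genes that were well above background throughout, 2.56, with 2.32, 2.49 and 1.81 before the step and -0.74, -3.79 and -4.54 after it. Its difference was -5.23 (SE 0.99), or 37.6-fold.

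Other members stayed nearer to their earlier level in fraction 7. Tfap2b, an AP-2 factor of the tectum, stood at 3.24, 3.60, 3.36 and, in fraction 7, 2.42, and then at -1.31 and -2.25. Gata3, a zinc-finger factor of GABA neurons and of serotonin neurons, had 2.00, 2.64 and 2.17 followed by 1.10, -1.12 and -2.70. For these genes the largest neighbour difference lay between fractions 7 and 8, so the position of the step was not the same for all members. Pax7, a paired-box factor of the dorsal midbrain, likewise had -0.82, -0.63 and -0.67 and then -2.35, -4.58 and -5.85, of which 2 of the last 3 were well above background. Dmbx1 (gap 1.10), Nkx6-1 (0.88) and Tal1 (0.74) also had their largest neighbour difference there.

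Some regulators were not well above background in any of fractions 7 to 9, so that only a lower bound of their fold can be given. It is the mean of the bright side over the mean, per array, of the higher of the probe's own value and the dimmest probe well above background. Pax8, a paired-box factor of the isthmus and hindbrain, had -1.07, -1.46 and -3.41 before and -5.52, -7.07 and -6.53 after the step, at least 10.2-fold lower. Pou4f3, a POU factor kin to Pou4f2, had -2.18, -2.36 and -3.26 and then -6.15, -6.03 and -7.34, at least 6.61-fold lower.

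**Figure D2:**
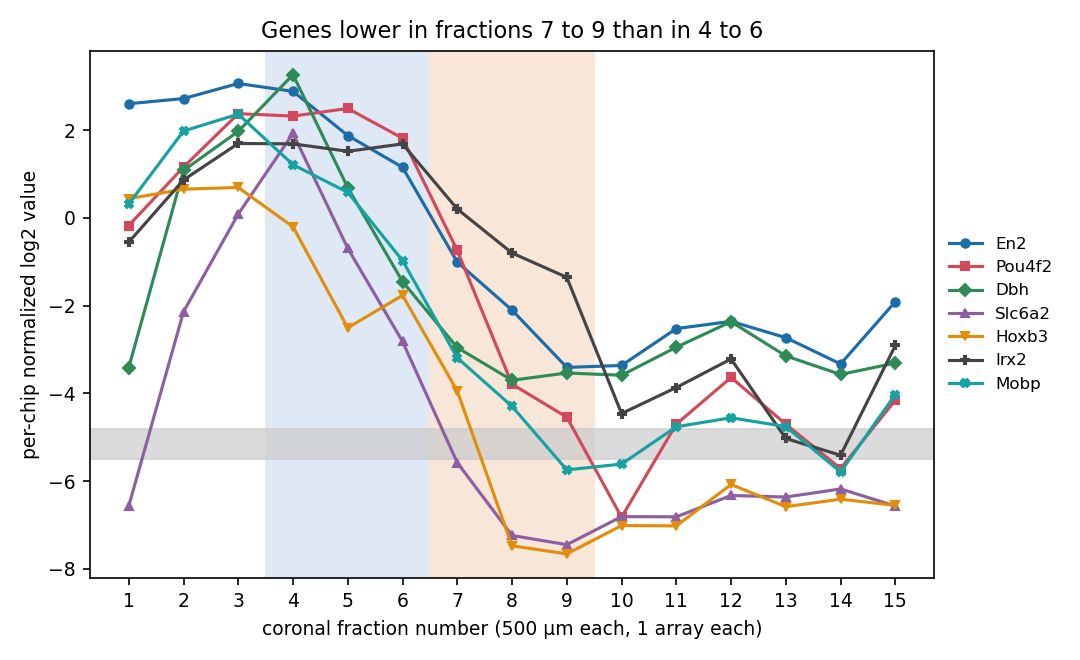
Per-chip normalized log2 values (vertical axis) of 7 genes over the 15 coronal fractions of 1 mouse (horizontal axis), 1 array a point. Fractions 4 to 6 are shaded blue and 7 to 9 orange, and the grey band, from -5.50 to -4.82, spans the dimmest values well above background on the 6 arrays. En2 goes from 1.15 in fraction 6 to -1.01 in fraction 7, and Slc6a2 stays under the band from fraction 7 on.

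Iroquois genes made the most uniform group. All 6 (Irx1 to Irx6) were kept, well above background in all 6 fractions and lower by the rule, with a median difference of -2.28. Irx2 had 1.68, 1.52 and 1.68 before the step and 0.20, -0.80 and -1.36 after it, a difference of -2.28 (SE 0.39). Its values lay between 1.52 and 1.69 in fractions 3 to 6, were graded over fractions 7 to 9, and reached -4.46 in fraction 10. Irx1 (difference -1.72, SE 0.28) showed a gap of 1.08, Irx4 (-2.36, SE 0.33) 1.27, Irx3 (-2.45, SE 0.56) 0.81 and Irx5 (-2.28, SE 0.62) 0.52. Irx1, Irx2 and Irx4 differed most between fractions 6 and 7, Irx3 and Irx6 (-2.16, SE 0.67) between 7 and 8 and Irx5 between 8 and 9. With fraction number added to the fit as a straight trend, the difference of Irx5 was 0.22 and so turned sign.

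Hindbrain Hox genes were dim or absent on the far side. Of 22 listed, 16 were kept and 12 were lower by the rule, none higher, but only 4 were well above background in all 6 fractions, 3 of them lower. The median difference was -3.40, or -3.26 with the genes not well above background in fractions 7 to 9 at their bounds. Hoxb3 had -0.20, -2.51 and -1.77 before and -3.95, -7.47 and -7.66 after the step, of which 1 of the last 3 was well above background. Hoxa2, the gene of the most anterior Hox territory, had -0.81, -2.82 and -2.26 and then -4.87, -7.09 and -7.40, again with 1 of 3 well above background. In Hoxa3, Hoxa5, Hoxb4, Hoxb5, Hoxb6, Hoxc4, Hoxd3 and Hoxd4 the largest neighbour difference lay between fractions 4 and 5, so that fraction 4 stood apart from 5 and 6. Without fraction 4 the difference of Hoxb5 went from -2.97 to -1.90 and that of Hoxb6 from -1.30 to -0.45, which ends its call, as does leaving out fraction 9 (-0.98).

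Genes of noradrenaline neurons were lower throughout, on a descent that had begun before the step. All 5 listed genes were lower by the rule, of which 1, Dbh, was well above background in all 6 fractions. Slc6a2, the noradrenaline transporter, had 1.92, -0.70 and -2.82 in fractions 4 to 6 and -5.58, -7.24 and -7.45 in fractions 7 to 9, where it was not well above background, and so was at least 27.8-fold lower. Dbh, which makes noradrenaline from dopamine, had 3.26, 0.69 and -1.45 and then -2.96, -3.70 and -3.54. Both descended within fractions 4 to 6 as well, and Dbh differed most between fractions 4 and 5, where it was lower by 2.57 on the log2 scale in 5. The median difference of the list was -5.03, or -4.79 with Slc6a2 at its bound.

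The serotonin genes named here had their highest coronal value in fraction 5, while the median of the 8 kept genes of the list was highest in fraction 4 (-0.16, against -0.35 in fraction 5). Of 9 listed genes 8 were kept and 5 were lower by the rule (4 of the 7 that were well above background throughout). Tph2, the enzyme that starts serotonin synthesis in neurons, had -0.81, -0.66 and -2.48 and then -4.53, -5.19 and -5.91, of which 1 was well above background. Fev, the ETS factor of serotonin neurons, had -1.13, -0.84 and -2.79 followed by -4.33, -4.43 and -4.41, a difference of -2.80 (SE 0.51). Gchfr, a regulator of the enzyme that makes the hydroxylase cofactor, had 2.09, 2.61 and 1.04 and then -0.49, -0.96 and -0.79. Slc6a4, the serotonin transporter, had 1.31, 1.86 and -0.21 and then -0.82, -0.66 and -2.21, so that its gap was only 0.45.

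The dopamine transporter and Pitx3 had their coronal peak inside the stretch. Of 16 kept dopamine genes 4 were lower by the rule, beside 1.5% of all genes. A negative difference was present for 13 and a positive one for 3, with a median of -1.16. Slc6a3, the dopamine transporter, had -2.0, 1.33 and 3.33 in fractions 4 to 6 and 1.89, -1.36 and -2.09 in fractions 7 to 9. The sides of Slc6a3 overlapped, and the same held for Pitx3 (highest, -0.89, in fraction 6). Th, which makes the precursor of dopamine, had 2.37, 2.43 and 3.42 and then 2.14, 1.38 and 0.81. It was lower by the rule with a difference of -1.30 (SE 0.43), but not without fraction 6 (-0.96) or fraction 9 (-0.98). Ddc, used by dopamine and serotonin neurons alike, had a difference of -1.68, from 3.20, 3.42 and 2.62 to 1.59, 1.82 and 0.79.

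Of 9 kept cholinergic and motor genes 6 were lower. Slc18a3, the vesicular acetylcholine transporter, had 2.05, 1.55 and 0.71 and then -1.05, -0.44 and 0.18, so the lowest value was in fraction 7 and the later ones were higher again. Chat overlapped. Isl1, a LIM factor of motor neurons that is also listed for the hypothalamus and striatum, was higher by the rule and is described with these below. Calcb, a calcitonin-related peptide gene, had -2.07, -2.59 and -3.67 and then -7.11, -7.25 and -7.36, not well above background, at least 5.86-fold lower.

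Myelin genes were lower, but unequally. Of 16 kept oligodendrocyte genes 6 were lower by the rule and none higher, and of the 14 well above background throughout 4 were lower. Mobp, a myelin protein gene, had 1.21, 0.58 and -0.97 and then -3.19, -4.30 and -5.74, 2 of which were well above background, with a difference of -4.68 (SE 0.82). Outside the list, Fa2h, which makes hydroxylated fatty acids of myelin lipids, was lower by -2.29 (SE 0.30). The lineage genes Olig1, Olig2, Pdgfra and Cspg4 had differences between -0.27 and -0.11, Sox10 had -0.56 and Gpr17, of newly formed oligodendrocytes, -0.96, and none of these 6 was called. Gpr17 was called without fraction 6 (-1.12).

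Probes of Mbp disagreed. The brightest probe had 2.71, 2.75 and 2.69 and then 2.88, 2.88 and 3.07, while another probe of the same gene had 0.63, -0.10 and -0.75 and then -2.37, -3.16 and -3.35. A further probe had a difference of 0.18, so 1 of the 3 probes was lower. Of 11 kept astrocyte genes Aqp4, the water channel of astrocyte endfeet, was lower by -1.34 (SE 0.20) and S100b by -1.55, and the other 9 were not called. All 11 had a negative difference, and 9, Aqp4 and S100b among them, were lower without overlap, beside 13.5% of all genes. The summed linear level of the astrocyte genes was between 88.6 and 120 in fractions 4 to 6 and between 58.8 and 72.3 in fractions 7 to 9. None of the kept microglial (10), endothelial (11), meningeal (13), cell-cycle (17) or housekeeping (14) genes was called in either direction. Over all genes only 1.5% were lower and 1.07% higher, so lists this short can hold no call at the background share. The summed linear level of the meningeal genes was between 296 and 551 in fractions 4 to 6 and between 273 and 481 in fractions 7 to 9.

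Beside the lists, lower genes with a gap over 2-fold that were well above background throughout included Sncg (gap 1.87), Lamp5 (1.75), Atoh7 (1.60), Fa2h (1.37), Meis1 (1.19) and Sp5 (1.16). Sncg, a synuclein of peripheral and brainstem neurons, had 3.89, 3.39 and 2.51 and then 0.63, 0.25 and -0.10. Lamp5, a membrane protein of some GABA neurons, had 1.15, 0.30 and -0.76 and then -2.51, -2.99 and -2.71. Both were graded over fractions 4 to 6 and varied less over fractions 7 to 9. Among genes seen on the near side only, Reg3b was at least 10.1-fold lower, Syt2, a synaptotagmin of fast synapses, at least 7.08-fold, Cryba2 at least 5.53-fold, Uts2b at least 4.93-fold and Glra1, a glycine receptor subunit, at least 2.60-fold.

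In the other direction hypothalamic regulators were led by Fezf1, Six6, Lhx8 and Vax1, which were not well above background in any of fractions 4 to 6. Of 26 listed, 23 were kept, 6 were higher by the rule and 2 lower (Irx3 and Irx5, above), with a median difference of 0.33. Of the 15 well above background throughout 2 were higher and 2 lower. Fezf1, a zinc-finger factor of the ventromedial hypothalamus, had -7.45, -6.74 and -6.34 and then -1.19, 0.25 and -0.13. It was at least 27.3-fold higher. Six6, a homeodomain factor of the ventral hypothalamus, pituitary and eye, had -7.45, -6.74 and -6.99 followed by -3.00, -1.69 and -1.15, at least 9.08-fold higher. Lhx8, a LIM factor of ventral forebrain cholinergic neurons, had -5.66, -5.35 and -6.98 and then -3.36, -0.23 and 1.02, at least 19.3-fold higher. Lhx8 is also on the list of ventral telencephalic factors below, so its call is counted in both lists.

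Isl1 had the largest gap, 1.99, of the higher genes that were well above background throughout. Its values were -2.75, -2.72 and -3.71 before the step and -0.73, -0.09 and -0.12 after it, a difference of 2.75 (SE 0.33), 6.71-fold. Vax1, a ventral forebrain homeodomain factor, had -5.52, -5.19 and -5.20 and then -3.94, -1.95 and -1.92, at least 5.75-fold higher. Nr5a1, which specifies the ventromedial nucleus, had a difference of 1.10 (0.83 and no call without fraction 8), with -2.26, -2.03 and -2.40 before and -0.96, -0.60 and -1.83 after.

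Further hypothalamic regulators began before the step or ended within it. Nkx2-1, which specifies the ventral hypothalamus, had -7.57, -6.79 and -1.93 and then -1.10, -1.68 and -2.10, so that fraction 6 lay among the values of the far side. Foxb1, a factor of the mammillary region, peaked in fraction 6, with 0.77, 0.77 and 1.89 and then 1.63, -0.59 and -1.58. The sides of both genes overlapped and neither was called.

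**Figure D3:**
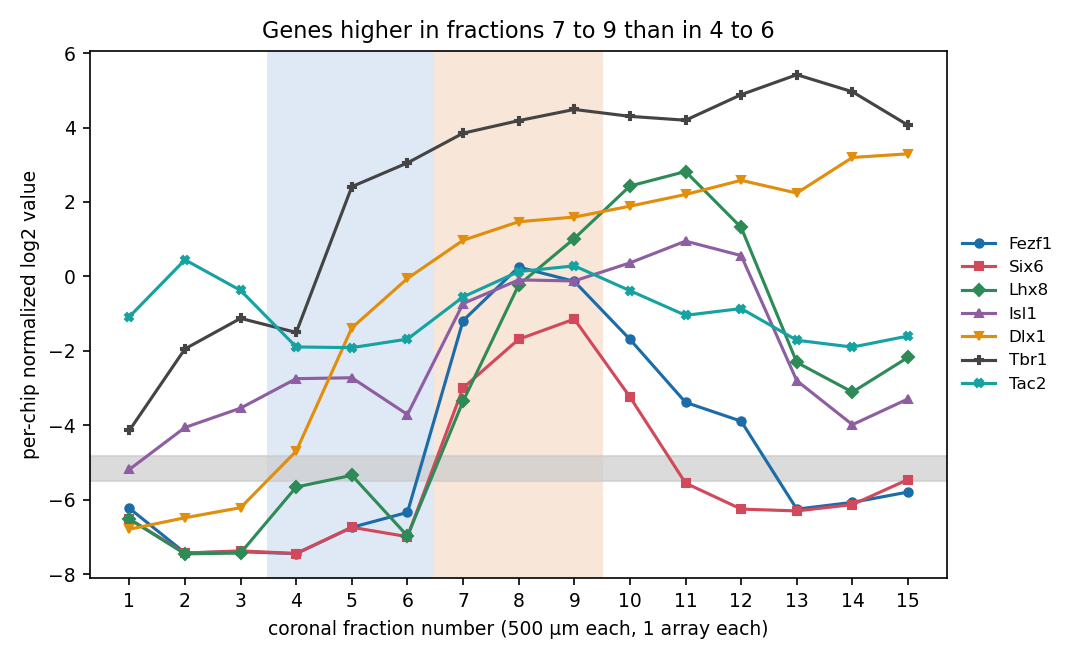
Per-chip normalized log2 values (vertical axis) of 7 genes over the 15 coronal fractions of 1 mouse (horizontal axis), with the same shading and grey band as for the lower genes. Fezf1 and Six6 leave the range under the band in fraction 7, while Tbr1 and Dlx1 have their largest neighbour difference between fractions 4 and 5.

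Several peptide genes of hypothalamic neurons were high in only a few fractions. Of 27 listed, 25 were kept, 9 were higher by the rule and 2 lower, with a median difference of 1.36, and of the 21 well above background throughout 7 were higher and 2 lower. Pmch, the precursor of melanin-concentrating hormone, had -6.40, -6.92 and -3.12 and then 3.11, 3.47 and -0.39, with fraction 6 alone well above background on the near side. The nearest values of the sides, in fractions 6 and 9 and both well above background, lay 2.73 apart. Hcrt, the precursor of the orexins, had -1.20, -1.22 and -1.27 followed by 2.09, 3.14 and -0.27. Both of these lateral hypothalamic genes were high in fractions 7 and 8 and lower in fraction 9.

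Agrp, Npw and Npvf had the same 2 high fractions but were near or under the values of fractions 4 to 6 again in fraction 9 and so overlapped. Agrp, an appetite peptide of the arcuate nucleus, had -2.23, -2.81 and -3.04 and then 1.07, 1.07 and -3.01. Npvf, a peptide of the dorsomedial hypothalamus, had -3.60, -4.43 and -4.03 and then 0.03, -0.40 and -4.47. Avp and Oxt, the hormones of the magnocellular neurons, came 1 fraction later. Avp had -4.14, -4.94 and -4.77 and then -1.01, 3.63 and 3.73, a difference of 6.73 (SE 1.32), with 2 of the first 3 well above background. Oxt had -2.46, -3.61 and -3.77 followed by -2.81, 2.39 and 2.42, and its sides overlapped through fraction 7.

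Not every peptide gene was high on the far side. Npy (difference 1.63, SE 0.23), Trh (1.58) and Nts (1.49) were higher by the rule but had their highest coronal value in fraction 15. Tac2, a tachykinin of habenula and hypothalamus, had -1.90, -1.91 and -1.69 and then -0.55, 0.13 and 0.28, with its highest coronal value in fraction 2. Kiss1 (1.36) lost its call without fraction 7 (0.71). Cartpt was lower by -1.22, from 1.42, 1.49 and 2.38 to 0.78, 0.82 and 0.03, and lost its call without fraction 6 (-0.91) or fraction 9 (-0.96). Nmu, lower by -1.06, lost it without fraction 6, 8 or 9 (-0.91, -0.89 and -0.88), and Pomc overlapped.

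**Figure D4:**
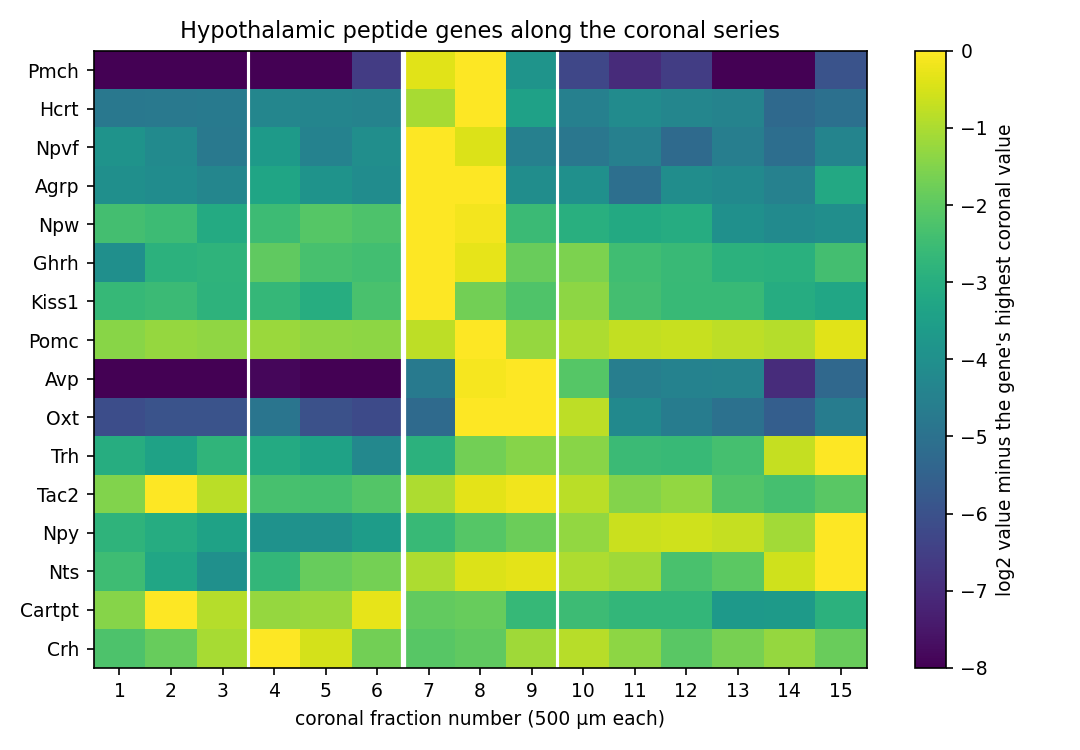
Log2 value of 16 peptide genes (rows) in the 15 coronal fractions (columns), coloured by the distance to the gene's own highest coronal value on the log2 scale, with distances beyond 8 drawn as 8. White lines mark the edges of fractions 4 to 6 and 7 to 9. Pmch, Hcrt, Npvf, Agrp and Npw are bright in fractions 7 and 8, Avp and Oxt in fractions 8 and 9.

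A pituitary transcript was high in the same fractions 7 and 8. Cga, the common subunit of pituitary glycoprotein hormones, had -7.50, -6.81 and -7.04 and then -0.75, -1.35 and -6.80, well above background in fractions 7 and 8 alone. Its non-overlap rested on fraction 9 against fraction 5 (-6.80 and -6.81), neither of them well above background, so that its call is not supported by measured values in fraction 9. Of 15 pituitary genes 8 were kept, 1 (Cga) was higher and 1 (Pitx1) lower by the rule, and their summed linear level was between 2.12 and 3.87 in fractions 4 to 6 and between 1.37 and 3.87 in fractions 7 to 9. Gh, Prl, Tshb, Fshb and Pou1f1 did not pass the filter. The part of pituitary RNA in the peptide values was not tested.

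Telencephalic genes were also higher, but as a slope that began earlier. Of 24 kept cortical projection neuron genes 23 had a positive difference, 10 were higher by the rule and none was lower, with a median difference of 0.81 (9 of the 23 well above background throughout were higher). Tbr1, a T-box factor of early cortical neurons, had -1.51, 2.41 and 3.05 and then 3.85, 4.19 and 4.49. The value of fraction 4 stood apart, and the difference of 2.86 (SE 1.20) had a limma adjusted p of 0.277. Without fraction 4 the difference of Tbr1 was 1.44, and Neurod6 (1.59 to 0.91), Neurod2 (1.14 to 0.75), Bhlhe22 (1.07 to 0.65) and Fezf2 (3.01 to 0.84) lost their calls.

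The factors of ventral telencephalic GABA neurons followed the same course. Of 17 kept genes 10 were higher by the rule, 6 of the 12 that were well above background throughout, and none was lower. Dlx1 had -4.70, -1.38 and -0.05 and then 0.97, 1.47 and 1.59, a difference of 3.39 (SE 1.17) that was 2.06 without fraction 4. Dlx2 and Dlx5 (differences 2.90 and 3.44) went to 1.66 and 2.22 without it. Sp9, a zinc-finger factor of the same lineage, differed most between fractions 6 and 7, with -4.04, -3.86 and -3.02 and then -1.67, -1.96 and -1.71. With fraction number in the fit as a straight trend the differences of Dlx1 (-0.56), Dlx2 (-0.85), Dlx5 (-0.45), Tbr1 (-1.04) and Neurod6 (-0.46) turned sign. Lhx6 was level, with values between 2.85 and 3.10 in all 6 fractions.

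None of the 19 thalamic genes, all kept, was called in either direction, and the median difference was 0.31. With 1.5% lower and 1.07% higher over all genes, a list of this size can hold no call at the background share. Without overlap but under 2-fold, 5 of the 19 were higher and 3 lower, beside 3282 (21%) and 2113 (13.5%) of all 15650 genes without overlap, so both shares were near the background. Tcf7l2, a Wnt effector of thalamus and habenula, had 1.56, 1.69 and 2.13 and then 2.96, 2.98 and 2.42, a difference of 0.99 (SE 0.22), just under the 2-fold limit. Gbx2, a factor of early thalamic neurons, overlapped, with 0.15, -1.29 and -0.92 and then -0.45, 1.15 and 0.75. Lhx9 was as high on the near side (2.60, 2.43 and 2.22) as on the far one (1.74, 2.70 and 2.75). Prox1, known from the dentate gyrus and from the dorsal thalamus, was higher by 1.61 (SE 0.29), with -3.31, -3.00 and -2.89 and then -2.06, -1.31 and -1.01. Habenula genes went both ways, Tac2 and Gng8 being higher and Pou4f1 and Slc5a7 lower. Slc5a7 lost its call without fraction 7 (-0.95).

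**Figure D5:**
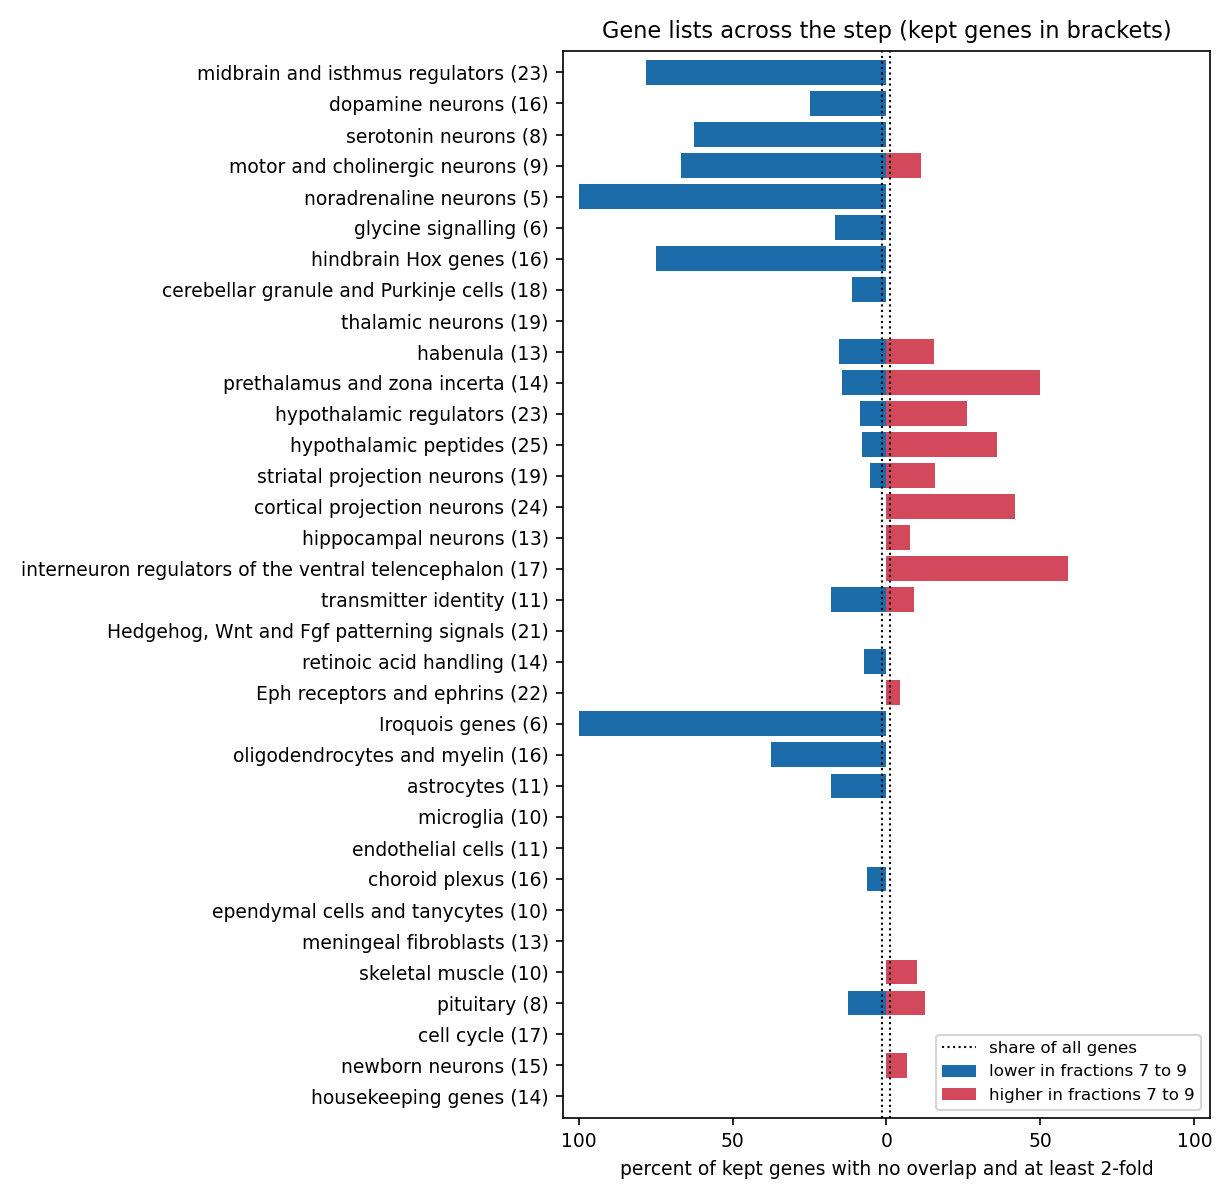
Percent of the kept genes of each list (number kept in brackets) that were at least 2-fold lower (blue, to the left) or higher (red, to the right) in fractions 7 to 9 with no overlap. Dotted lines are the shares over all genes, 1.5% lower and 1.07% higher. Noradrenaline and Iroquois genes reach 100% on the lower side and thalamic genes have no bar.

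Choroid plexus markers were high at the outer ends of the stretch. Ttr, the transthyretin of choroid plexus, had 7.32, 5.66 and 5.69 and then 6.09, 5.66 and 7.40, and of 16 kept choroid plexus genes only Otx2, which the midbrain also expresses, was called (-1.08, with no call without fraction 5 or 8). Outside the lists, the higher genes with the largest gaps included Hspb3, a small heat shock protein, (1.19), Inhba, an activin subunit, (1.04), Cck, the cholecystokinin precursor, (0.99) and Prkch, a protein kinase C, (0.87). Cck had 4.52, 4.54 and 5.27 and then 6.26, 6.53 and 6.40. Prkch was the more local of these, with -2.51, -2.66 and -2.64, then -1.64, -0.99 and -1.42, and -2.51 again in fraction 10.

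Of the lncRNA probes on the array 6289 were kept, and 49 were lower and 44 higher by the rule. Both shares were smaller than those over all 33459 kept probes, 1.22% lower and 0.912% higher. Some lncRNA probes with the largest gaps are given by probe and by the mm9 position in the array files. A_30_P01027176 on chromosome 8 (83210957 to 83219451, plus strand) was higher by 1.27, with -1.12, -1.71 and -1.43 and then -0.41, 0.08 and -0.14. On the lower side A_30_P01017904 and A_30_P01019371, both given for chromosome 1 (186560855 to 186563399, plus strand), had the same difference of -1.27 (-0.34 and -0.37 with normexp), and A_30_P01017750 on chromosome 7 (67111261 to 67120697, minus strand) had -0.97, just under the 2-fold limit.

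Along the whole coronal series, many called probes had their highest value outside fractions 4 to 9. By the rule a lower probe cannot peak in fractions 7 to 9, nor a higher one in fractions 4 to 6. Peaks of all kept probes were not counted in any series, so the numbers below have no background beside them. Of the 407 lower probes 202 had their highest value in fractions 1 to 3, 173 in fractions 4 to 6, and 30 in fractions 13 to 15. Of the 305 higher probes 109 peaked in fractions 7 to 9, 80 in fractions 10 to 12 and 111 in fractions 13 to 15. Fezf1, Six6, Pmch, Hcrt and Avp were among those that peaked within fractions 7 to 9, and their means over fractions 10 to 12 were -2.99, -5.02, -3.15, -1.19 and 0.02. In the brains cut along the other axes, each from another mouse, the 407 lower probes peaked most often in horizontal fractions 7 (95 probes) and 6 (94) and in sagittal fractions 6 (84) and 9 (71). The 305 higher probes peaked most often in horizontal fractions 2 (71) and 8 (61) and in sagittal fractions 1 (84) and 2 (42). Of those with a 2-fold gap, the 83 lower probes with a 2-fold gap peaked most often in horizontal fractions 6 (29 probes) and 7 (26), and the 29 higher ones in horizontal fractions 8 (9) and 7 (7). In the sagittal series the peaks of the 83 lay mostly in fractions 6 (17), 7 (16), 8 (15) and 9 (16), and those of the 29 in fractions 7 (8) and 1 (7).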

How the data were processed

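Total RNA of each fraction was hybridised by the authors to 1 single-colour Agilent array, and spot intensity was read by Feature Extraction (10.10.1.1 per the file headers). The deposited table holds log2 values of 43199 probes, which on the 15 coronal arrays equal the log2 processed signal intensity minus 1 constant per array within 0.02 for nearly all values. Symbols came from RefSeq (GRCm38.p6) for 23369 of these probes. Probes well above background in at least 2 of fractions 4 to 9 were compared between the sides with limma 3.58.1 (R 4.3.3, two-sided, Benjamini-Hochberg). The code of this fit was run on simulated arrays with planted shifts and independent noise. Such noise holds no gradient along the axis, so the simulation does not speak of p-values for neighbouring fractions. Tables were made with Python 3.11.15. Of each gene the kept probe with the highest mean stands for it. Named were the defining markers, up to 4 called genes per list, the 15 largest gaps each way among genes well above background throughout, up to 10 genes seen on 1 side only each way and up to 3 lncRNA probes each way. Other genes were named after their values were seen, such as Npvf, Npw, Tnnc2, Ddc and Lhx6. Some genes and probes that this rule names are not reported here. The comparison and the lists were chosen with earlier results of these data known. Alternatives were other scalings, normexp (on the median spot signal, as the files hold no mean), other filters, each fraction left out, limma-trend, a fit over all 15 coronal fractions and fraction number as a covariate.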

Additional observations from a re-analysis of the deposited data

Results flagged for a closer look

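Irx2 in the horizontal series of the second mouse had an isolated lowest value. Its log2 values in horizontal fractions 1 to 8 were 0.08, 0.36, 0.73, 0.28, 0.08, -0.22, 0.59 and -1.64. The gap from fraction 8 to the next value was 0.6 of the whole range, beyond Dixon's limit for a group of this size. Of 60 groups of values examined in this way 1 passed the limit, and chance alone passes about 1 in 20. The fractions are positions and not replicates.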

How the results depend on the processing

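Limma called 0 probes each way in the comparison itself, 48 lower and 23 higher in the fit over all 15 coronal fractions, 0 and 1 with limma-trend, and between 0 and 8 lower and between 0 and 1 higher when a fraction was left out (8 lower without fraction 6, 1 higher without fraction 6 and 1 without fraction 7). The 407 lower and 305 higher probes became 153 and 86 with normexp and quantile normalization, 242 and 143 with probes well above background in all 6 fractions, and 634 lower and 426 higher with no filter. With a fraction left out, where non-overlap is easier to meet, they ranged from 395 to 576 lower and from 316 to 489 higher. The 83 lower and 29 higher probes with a 2-fold gap became 27 and 5 with normexp, 31 and 8 with the strict filter, and ranged from 97 to 212 and from 35 to 133 with a fraction left out, where fewer values set the gap. With fraction number as a covariate 10 of the 82 called features given by the naming rule turned sign: Dlx1 (-0.56), Dlx2 (-0.85), Dlx5 (-0.45), Emx1 (-0.60), Hoxd3 (0.65), Irx5 (0.22), Neurod6 (-0.46), Nr4a3 (-0.72), Slc17a7 (-0.35) and Tbr1 (-1.04). The cause was not tested. Of the other 72, 61 moved by more than the spread within a side and 11 did not. Other scalings kept the sign of all 82, but with normexp and quantile normalization 46 moved by more than that spread. No paired analysis was possible because the sides share no fraction number. Dim probes give only bounds, and 1 array per fraction limits the precision.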
